A study of Mus musculus with 33 samples.

Results

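The 10 control livers of a mouse feeding study form the baseline described here: they are the arrays whose titles label them as liver controls, 10 of the 33 arrays in the series. All mice were male C57BL/6J, 17 weeks old at the end, housed 2 per cage, and fed a research diet for 2 weeks. The control diet carried sunflower oil rich in oleic acid (81.3% of the oil) at 7% of energy. The other groups were 12 mice fed the same sunflower oil diet with fenofibrate, a drug that activates the nuclear receptor PPARα, at 0.03% by weight, and 11 mice whose oil, also 7% of energy, was fish oil with EPA as 23.1% and DHA as 21.1% of it. Every mouse was fasted from 7:00 to 13:00 under lights that came on at 6:30, so each liver is a single daytime sample of a fasted animal. The control is therefore an oil-supplemented diet and not a plain one, and no liver was taken at another hour or in the fed state.

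Liver is the main source of plasma proteins and lipoproteins and the main site of urea synthesis, drug metabolism and, with adipose tissue, fatty acid synthesis. Its transcripts also follow 3 well-known regulatory inputs. The circadian clock drives daily rhythms through the activator pair of BMAL1 (the Arntl product) and CLOCK, its repressors of the period and cryptochrome families, and output factors such as DBP. Inflammatory cytokines induce the acute phase response, in which hepatocytes raise serum amyloid A, lipocalin 2 and other secreted proteins. Sterol regulatory element binding proteins drive the genes of fatty acid and cholesterol synthesis, and PPARα drives fatty acid oxidation genes during fasting.

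Values are log2 probe set intensities after GCRMA, so a difference of 1 is a 2-fold change. Of 45101 probe sets, 17162 reached log2 4 in at least 10 of the 33 arrays, and 9005 genes were kept, each by its brightest probe set. Median intensity ran from 2.92 to 2.95 across the control arrays and no pair of arrays held identical values. Control replicates 1, 2 and 9 stood apart. They held 21.6%, 18.7% and 16.1% of the summed squared deviations from the gene means, against 4.8% to 8.1% for each other control array. Replicate 1 had 209 genes at least 2-fold above and 212 at least 2-fold below the median of the other control arrays, replicate 2 had 173 and 142, and replicate 9 had 133 and 115. The first 2 principal components, with 35.7% and 23.5% of the variance, placed replicates 1 and 2 together on the first and replicates 2 and 9 at opposite ends of the second. Results below are given with and without these arrays where they rest on them. The arrays were picked out from the same values that are described, so a count of genes that lie highest or lowest in one of them is a description, to be read against the share of all 9005 genes that do so.

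Hepatocyte markers had a summed intensity between 17.93 and 18.03 on the log2 scale in all 10 arrays, whereas all 13 skeletal muscle markers stayed below 4. Kupffer cell markers summed to between 13.75 and 14.34. Neutrophil and monocyte markers summed to 8.66 in replicate 5 and 8.03 in replicate 2, and to between 6.1 and 6.62 in the rest. Xist was between 1.73 and 2.33 and the Y-linked Eif2s3y between 9.70 and 10.03 in the control arrays, the pattern of male tissue. In whole liver, fewer cells of a type and less RNA per cell cannot be told apart.

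The brightest probe sets of the control livers belonged to the secreted and metabolic products of hepatocytes. The intensity of a probe set depends on its own sequence, so brightness is not an order of transcript abundance. Fabp1, the cytosolic fatty acid binding protein of liver, had the highest mean at 15.44 ± 0.06 (SD, n = 10). Apoa1, the main apolipoprotein of high density lipoprotein, stood at 15.32 ± 0.06, Alb, the albumin gene, at 14.95 ± 0.06, and Ttr, the thyroxine and retinol carrier transthyretin, at 14.91 ± 0.07. The next 26 were Clu, Fgb, Fga, Cyp2e1, Apoa2, Gstp1, Serpina1b, Pzp, Fgg, Apoe, Tpt1, Mgst1, Scd1, Rps29, Hamp, Serpina1c, Apoc3, Rbp4, Apoh, ND5, Hpx, Eef1a1, Phyh, Fth1, Mup3 and Uox, down to 14.16 for Uox, the urate oxidase gene. They cover fibrinogen (Fga, Fgb, Fgg), protease inhibitors (Serpina1b, Serpina1c, Pzp), apolipoproteins, detoxification enzymes (Cyp2e1, Gstp1, Mgst1), iron handling (Hamp for hepcidin, Fth1 for ferritin heavy chain), and translation (Rps29, Eef1a1).

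Whole functions shared this brightness. Among the brightest 10% of genes, those with a mean of at least 11.07, were 18 of 18 plasma protein and serpin genes, 19 of 21 apolipoprotein and lipoprotein genes, 28 of 34 complement and coagulation genes and 14 of 15 hepatocyte markers. They also held 31 of 35 respiratory chain genes, 20 of 23 ribosomal protein genes, 25 of 33 genes of the urea cycle and amino acid catabolism, and 26 of 34 genes of xenobiotic metabolism. Fatty acid synthesis had 14 of 23 genes there, PPARα targets 15 of 26, acute phase genes 18 of 33, bile acid genes 12 of 20, and cholesterol synthesis 5 of 21. Clock genes had 2 of 12, and cell cycle and immediate early genes 0 of 12 and 0 of 14. Scd1, the stearoyl-CoA desaturase that makes oleic acid, was among the 30 brightest with 14.33 ± 0.06 on this oleic-rich diet.

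Variation ran opposite to brightness. The median SD over the 10 control arrays was 0.21, with 10% of genes below 0.10 and 10% above 0.43. It was 0.27 for genes with means from 4 to 6, 0.17 from 8 to 10 and 0.07 for the 45 genes at 14 or more. Dim values lie close to the array background and bright ones close to the highest value of the files, 15.63, and the part of either in this trend was not tested. Of the 9005 genes, 91 (1.01%) had an SD of at least 1. Without replicates 1, 2 and 9 these were 18, and the median SD was 0.16. In the other diets the median SD was 0.19 for fish oil and 0.19 for fenofibrate, with 50 and 34 genes at 1 or more.

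**Figure D1:**
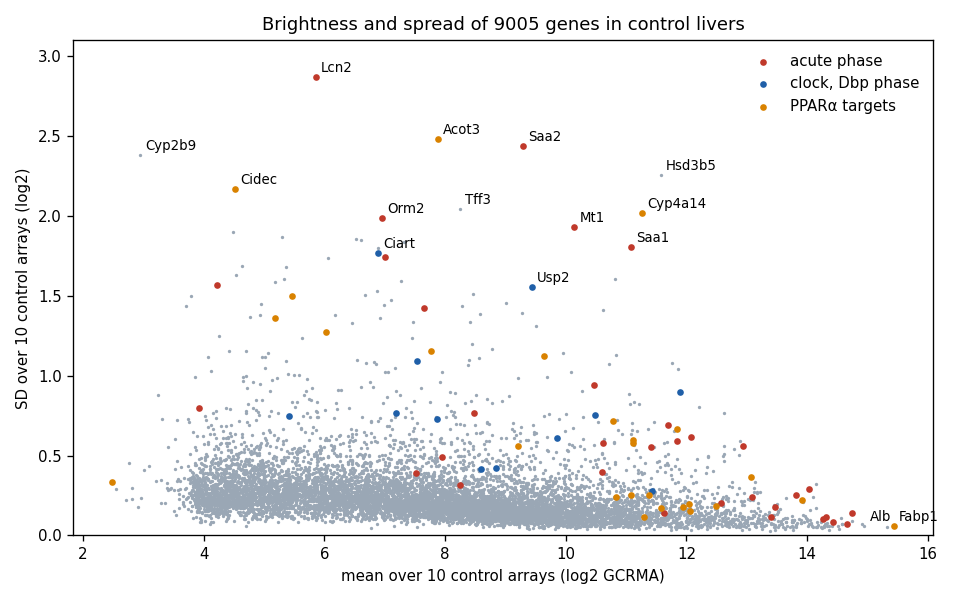
Each point is one of 9005 genes, with its mean log2 intensity over the 10 control arrays on the horizontal axis and its SD over them on the vertical axis; acute phase genes, clock genes and PPARα targets are coloured. SD falls from a median of 0.27 for dim genes to 0.07 for the brightest, and Lcn2 (SD 2.87), Acot3 (2.48) and Saa2 (2.44) lie far above genes of the same mean.

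The 40 genes with the largest SD included several of a few functions. Acute phase and metal response genes made up one group, with Lcn2 (SD 2.87), Saa2 (2.44), Orm2 (1.99), Mt1 (1.93), Saa1 (1.81), Mt2 (1.74) and Cd14 (1.57). S100a8 (1.63) is a gene of neutrophils and monocytes. PPARα targets and lipid genes made up another, with Acot3 (2.48), Cidec (2.17), Cyp4a14 (2.02) and Pdk4 (1.50). Hsd3b5 (2.26), a hydroxysteroid dehydrogenase of male mouse liver, and Cyp2b9 (2.38), a cytochrome P450, and Abcd2 (1.59), a peroxisomal transporter, of female mouse liver, differ between the sexes. Ciart (1.77) and Usp2 (1.56) follow the clock. Cish (1.87), a feedback inhibitor of growth hormone signalling, and the growth-related transcription factors Egr1 (1.80) and Myc (1.69) were also among the 40, as were Tff3 (2.05), a trefoil peptide of mucous epithelia, and Gadd45g (1.86), a stress-inducible gene. The other 18 were Rad51b, Scara5, Zbtb16, Rgs3, Clec2h, Rgs16, Gpat3, Acnat2, Cnmd, Lepr, Foxq1, Lad1, Plk3, Ppp1r3c, Dct, Cxcl1, Slco1a4 and Ly6d.

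The array farthest from the gene's median was replicate 2 for 18 of these 40 genes, replicate 1 for 12 and replicate 9 for 9; S100a8 was the exception, with replicate 5. Without replicates 1, 2 and 9, 13 of the 40 still had an SD of at least 1: Lcn2, Acot3, Tff3, Cyp4a14, Cish, Gadd45g, Scara5, Egr1, Rgs3, Myc, S100a8, Foxq1 and Dct. Ranking by the median absolute deviation, which gives single arrays little weight, kept 15 of the 40. For the 11 genes of the 40 that had a second probe set, the 2 probe sets correlated at 0.96 or more across the 10 arrays (median 0.99, against 0.56 over the 3850 genes with several), so their differences were not those of 1 probe set. The SD was larger in control than in both other diets for 37 of the 40, with medians of 1.71 in control, 1.20 in fish oil and 0.86 in fenofibrate livers; the genes were chosen for their control SD, so this order is partly fixed by the choice, and Zbtb16, Ciart and Foxq1 were the exceptions.

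Among the core clock and clock output genes, replicate 1 was the lowest array for 10 of 12 (16.8% of all genes were lowest there), and replicates 1 and 2 were the 2 lowest for 8 of 12 (9.92% of all genes). Dbp, a transcription factor with a strong daily rhythm in liver, measured 9.48 in replicate 1, 11.61 in replicate 2, 11.66 in replicate 9 and between 12.13 and 12.45 in the others, so replicate 1 stood at 0.149 times the median. Fish oil livers covered 10.70 to 12.26 and fenofibrate livers 11.06 to 12.06 for Dbp, and replicate 1 lay below all of them. Ciart, a repressor of the CLOCK and BMAL1 pair, was the most variable. It measured 3.05 in replicate 1, below the log2 4 of the filter, 4.46 in replicate 2 and 6.89 to 8.40 in the others. Usp2, a deubiquitinase with rhythmic expression, measured 5.48, 8.15 and 9.48 to 10.65 in the same order. Both genes showed a graded pattern: replicate 1 lowest, replicate 2 next, and no overlap of these with the other 8 arrays.

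The period genes, which encode repressors of the clock's positive arm, had the same lowest array except for Per1. Per3 measured 4.72 in replicate 1, 6.95 in replicate 2, 7.12 in replicate 9 and up to 8.39 in the rest. Per2 measured 5.19 in replicate 1 and between 7.04 and 7.96 in all others. Per1 was 4.21 in replicate 1, 4.06 in replicate 2 and 5.37 to 6.48 in the others, with replicates 1 and 2 again apart from the rest.

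Tef, a PAR bZIP factor related to Dbp, was 8.30 in replicate 1 and 9.49 to 10.34 elsewhere. Bhlhe40, a repressor that competes for E-boxes, was 8.65 in replicate 1, 9.95 in replicate 9 and 10.07 in replicate 2, against a highest value of 11.11. Nr1d1, the REV-ERBα repressor of Arntl, differed in its lowest array: 6.49 in replicate 9, 7.23 in replicate 1, 7.63 in replicate 2 and 8.68 in replicate 7. Of the 3 measured genes of the opposite phase, 2 were highest in replicates 1 and 2: Clock measured 9.19 in replicate 1, 8.49 in replicate 2 and 7.57 to 8.32 in the others, and Nfil3, a repressor of Dbp target genes, 7.67, 7.27 and 4.85 to 6.70. The third, the cryptochrome gene Cry1, was lowest there, at 4.71 in replicate 2, 5.06 in replicate 1 and 5.19 to 6.21 in the others. Arntl itself reached at most 3.97, in replicate 1, followed by 3.67 in replicate 2, and was at log2 4 or more in 1 of 33 arrays, so it was not tested.

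Promoter windows of 250 bases upstream of the RefSeq start site (GRCm38.p6) were read for the 10 of the 12 measured clock genes that have one in the tables used, and 4 are shown because they hold a match to a motif through which the clock acts. The letters searched were the E-box CACGTG, bound by CLOCK and BMAL1, which reads the same on both strands, and the D-box sequences TTATGTAA, TTACATAA and TTACGTAA on both strands, bound by DBP and TEF; these do not overlap the E-box. Capitals mark the matches, and each window is written 5′ to 3′ on the gene's own strand. The windows are chr3:95882229-95882478 (minus strand) for Ciart, chr4:151044666-151044915 (minus strand) for Per3, chr11:69098699-69098948 (plus strand) for Per1 and chr15:81802423-81802672 (plus strand) for Tef.
Ciart: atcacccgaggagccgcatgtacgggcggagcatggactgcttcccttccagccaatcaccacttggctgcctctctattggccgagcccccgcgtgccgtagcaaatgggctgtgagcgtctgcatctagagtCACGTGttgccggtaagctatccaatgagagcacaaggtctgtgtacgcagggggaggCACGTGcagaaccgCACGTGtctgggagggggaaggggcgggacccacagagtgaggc
Per3: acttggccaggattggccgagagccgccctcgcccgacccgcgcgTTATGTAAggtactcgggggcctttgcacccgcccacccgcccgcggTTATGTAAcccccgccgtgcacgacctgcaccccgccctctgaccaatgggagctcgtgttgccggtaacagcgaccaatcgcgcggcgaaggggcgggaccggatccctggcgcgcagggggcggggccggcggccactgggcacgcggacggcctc
Per1: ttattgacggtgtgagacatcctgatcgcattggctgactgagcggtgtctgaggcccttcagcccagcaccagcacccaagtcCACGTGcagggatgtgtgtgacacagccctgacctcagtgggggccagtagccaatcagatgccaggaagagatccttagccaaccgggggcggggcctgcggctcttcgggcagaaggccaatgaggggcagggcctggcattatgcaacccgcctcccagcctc
Tef: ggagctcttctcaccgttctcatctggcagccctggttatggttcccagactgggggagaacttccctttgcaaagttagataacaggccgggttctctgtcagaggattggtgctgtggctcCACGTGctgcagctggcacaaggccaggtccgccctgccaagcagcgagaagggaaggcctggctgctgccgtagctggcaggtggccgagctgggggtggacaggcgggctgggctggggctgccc

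The Ciart window held 3 E-boxes, starting at -116, -58 and -44 from the start site, Per1 held 1 at -166 and Tef 1 at -127. The Per3 window held 2 copies of a D-box, at -205 and -158. A second Tef window held an E-box at -138, and a second Per1 window held no match. In all, 3 of 10 clock genes had an E-box, against 6.86% of 27025 genes with a window, and 1 of 10 had a D-box, against 1.1%. Bhlhe41, a clock gene that did not pass the filter on low values, had an E-box at -153. A match is a description of these letters, and no factor binding was measured.

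To list what moved with the clock across livers, every other gene was fitted on the log2 level of Dbp within the 10 control arrays (limma, slope in log2 units per log2 unit of Dbp, Benjamini-Hochberg adjustment over 9004 genes, call at an adjusted p under 0.05). The fit called 748 genes (8.31%), 421 with a positive slope (4.68%) and 327 with a negative one (3.63%). Of 11 clock genes of the Dbp phase, 9 were called with a positive slope and none with a negative one. Dbp was chosen for the fit after the data were seen, and the list was made with earlier results of these data known. The counts and p-values of its members are therefore a description and not a test of the clock. Per3 had a slope of 1.20 ± 0.06 (SE; limma adjusted p = 4e-06), Tef 0.67 ± 0.05 (limma adjusted p = 0.00011), Per2 0.82 ± 0.08, Bhlhe40 0.80 ± 0.08 and Usp2 1.64 ± 0.17. Ciart had the steepest slope of the list, 1.74 (limma adjusted p = 0.007). Cry2, Hlf and Nr1d2 had called slopes of 0.40, 0.37 and 0.28. Per1 (0.60, limma adjusted p = 0.063) and Nr1d1 (0.36, limma adjusted p = 0.342) did not pass. Clock had a called negative slope of -0.51 (limma adjusted p = 0.004).

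Many of the calls rest on replicate 1. Without it the fit called 63 genes, and of the clock genes named here only Per3 (1.51, limma adjusted p = 0.00442) and Tef (0.88, limma adjusted p = 0.0236) passed. The slopes themselves were similar or steeper without it: Ciart had 2.91 (limma adjusted p = 0.112), Usp2 1.66 (0.153), Bhlhe40 1.13 (0.0588), Cry2 0.80 (0.0874), Per2 0.76 (0.153), Hlf 0.69 (0.219), Nr1d2 0.52 (0.121) and Clock -0.90 (0.0567). Without replicate 3 or 10 it called 464 and 481. Without replicates 1, 2 and 9 it called 0 genes, with 435 at an unadjusted p under 0.05, and on the ranks of Dbp 0 genes, with 1737. Outside the clock list, Tnfrsf12a, the receptor of the cytokine TWEAK (-1.05 ± 0.08), and Cdkn1a, the cell cycle inhibitor p21 (-1.34 ± 0.12), had called negative slopes. Cdkn1a measured 7.51 in replicate 1, 5.09 in replicate 9 and at most 4.27 in the others. Hsd3b2, a hydroxysteroid dehydrogenase, had a called positive slope of 0.87 ± 0.09. Called negative slopes were also found for 7 of 26 PPARα targets and 4 of 17 heat shock genes (3.63% of all genes). Called positive ones (4.68% of all genes) were found for 4 of 11 glycolysis and glycogen genes, 4 of 16 periportal genes, 3 of 14 gluconeogenesis genes, 7 of 34 xenobiotic genes and 4 of 33 genes of the urea cycle and amino acid catabolism.

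The same fit within the other diets called 27 genes in fish oil livers (0.3%; 0.189% positive and 0.111% negative) and 22 in fenofibrate livers (0.244%; 0.133% positive and 0.111% negative). In fish oil livers, 4 of 11 clock genes were called: Per3 (1.78 ± 0.21), Per2 (1.96 ± 0.24), Usp2 (2.85 ± 0.39) and Ciart (3.34). In fenofibrate livers 2 of 11 were called, Usp2 (2.81 ± 0.38) and Tef (1.09 ± 0.18). Of the control calls, 19 were also called in fish oil livers, 2.54% of the control calls and 70.4% of the fish oil calls, all with the same sign. With fenofibrate 7 were shared, 0.94% and 31.8%, all with the same sign. These counts too rest on single arrays: without fish oil replicate 1 the fish oil fit called 0 genes (635 at an unadjusted p under 0.05), and without fenofibrate replicate 5 the fenofibrate fit called 0 (1086). Without fish oil replicate 2, 3, 6, 7, 10 or 11 it called 7 to 16 genes and without replicate 4, 5 or 9 it called 43 to 59; without fenofibrate replicate 8, 10 or 11 it called 9 to 14 and without replicate 9 it called 48. Whether the slopes differ between diets was not tested.

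**Figure D2:**
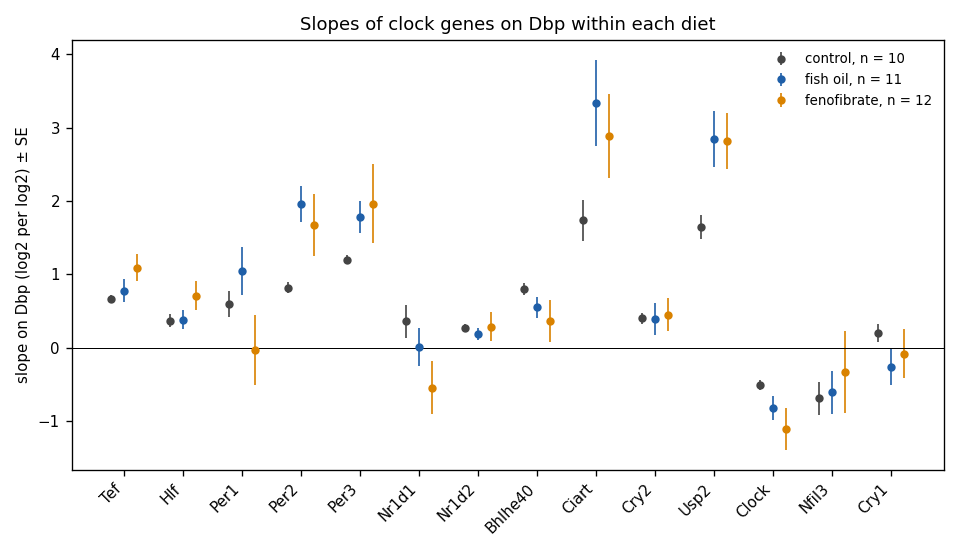
Points are the slopes of clock genes on Dbp (log2 per log2) within control (n = 10), fish oil (n = 11) and fenofibrate (n = 12) livers, with bars of 1 SE. Per3 has 1.20 in control and 1.78 in fish oil livers, Clock has -0.51 in control livers, and Nfil3 also lies below 0 in all 3 diets.

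Acute phase genes were high in replicates 1 and 2. These were the 2 highest arrays for 26 of 33 genes (12% of all genes), and replicate 2 was the highest for 27 of 33 (14.5% of all genes). Lcn2 encodes the siderophore-binding protein lipocalin 2. It measured 12.78 in replicate 2, 8.59 in replicate 1, 6.53 in replicate 5 and 3.69 to 5.48 in the others. Replicate 2 stood 243 times above the median on the linear scale. That median is set by arrays near the log2 4 of the filter, so the size of the fold is uncertain. Fish oil livers ranged from 3.18 to 10.66 and fenofibrate livers from 3.31 to 7.88 for Lcn2.

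Serum amyloid A genes, which encode acute phase apolipoproteins, were high in the same arrays. Saa2 measured 13.11 in replicate 1 and 14.46 in replicate 2, against 7.30 to 8.86 in the others, or 24.2 and 61.7 times the median. Saa1 measured 14.25 and 14.62 against 9.61 to 10.88, and Saa3 9.05 and 11.17 against 6.71 to 7.84. In all 3 genes replicates 1 and 2 lay above every other control array.

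The metallothioneins Mt1 and Mt2, which bind zinc and copper, had the same split: Mt1 was 13.44 and 13.90 against 8.39 to 10.36, and Mt2 8.90 and 11.08 against 5.50 to 7.46. Orm2, an orosomucoid, was 8.86 and 11.71 against 5.23 to 7.61. Cd14, the lipopolysaccharide co-receptor, was 5.18 and 8.23 against 3.03 to 4.69. Serpina3n, a secreted protease inhibitor, and Steap4, a metalloreductase, differed less, with 12.59 and 13.29 against 11.20 to 11.65 and 11.73 and 12.60 against 9.67 to 10.41. Il6ra, the receptor subunit for interleukin 6, was lower in these arrays, at 7.02 and 7.50 against 7.56 to 8.56. The fibrinogen genes Fga and Fgg had SDs of 0.07 and 0.08 and Hamp of 0.11, at means of 14.66, 14.42 and 14.31. Genes with means of at least 14 had a median SD of 0.07. Saa1 had an SD of 1.81 at a mean of 11.09, just above the 11.07 that bounds the brightest 10% of genes. Only replicates 1 and 2 lay above that bound for Saa1, so its SD is not a like comparison with the brighter genes.

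**Figure D3:**
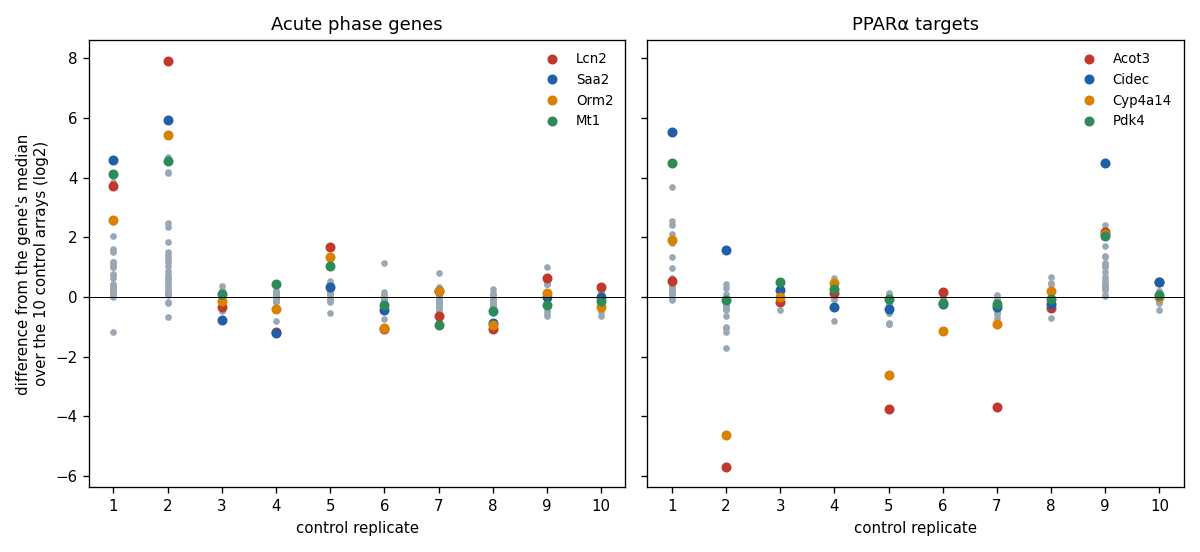
Each point is the log2 difference of an acute phase gene (left) or a PPARα target (right) from its own median over the 10 control arrays, by control replicate; 4 genes a panel are coloured and the other members are grey. Lcn2, Saa2, Orm2 and Mt1 are high in replicates 1 and 2, whereas Cidec and Pdk4 are high in replicates 1 and 9, and Acot3 and Cyp4a14 are lowest in replicate 2.

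A fit of every gene on Lcn2 within the control livers called 446 of 9004 genes (4.95%), 256 positive (2.84%) and 190 negative (2.11%). With each array centred on its median the split was 216 positive and 241 negative, so the split of signs depends on the scaling. Of 32 other acute phase genes, 19 were called, all with positive slopes. Mt2 (0.60 ± 0.03) and Orm2 (0.68 ± 0.04) had the smallest limma adjusted p among those named here, 1.5e-05 each. Il1rn, the interleukin 1 receptor antagonist, had a slope of 0.27 ± 0.02, Serpina3n of 0.24 ± 0.02, Steap4 of 0.32 ± 0.03, Saa2 of 0.81 ± 0.08 and Cd14 of 0.51 ± 0.06. Without replicate 2 the fit called 100 genes, and without replicate 1 it called 313; without replicate 3, 4 or 6 it called 246, 212 and 275. Without replicates 1, 2 and 9 it called 0 genes (797 at an unadjusted p under 0.05), and on the ranks of Lcn2 also 0 (1516).

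In fish oil livers the Lcn2 fit called 379 genes (4.21%), 178 with a positive (1.98%) and 201 with a negative slope (2.23%), or 352 and 102 of 454 with centred arrays. They included 12 of 32 acute phase genes with positive slopes. The called S100a8 slope was 0.62 ± 0.07. Fish oil replicate 9, the array at 10.66 for Lcn2, decided the calls: without it 0 genes were called (217 at an unadjusted p under 0.05). Without fish oil replicate 4, 5 or 8 it called 245, 639 and 231. The calls of both diets shared 35 genes, 7.85% of the control calls and 9.2% of the fish oil calls, 33 of them with the same sign. In fenofibrate livers limma called 0 genes, with 599 at an unadjusted p under 0.05, and on the ranks of Lcn2 0, with 560.

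Other lists also differed in some of the arrays with high acute phase genes, and their part in the result was not tested. The Kupffer cell list score is the median log2 difference of its genes from their medians. It was 0.41 in replicate 2 and 0.48 in replicate 5 but 0.0 in replicate 1. The acute phase score was 1.03 in replicate 2, 0.77 in replicate 1 and 0.11 in replicate 5. S100a8, a calprotectin subunit of neutrophils and monocytes, was 6.99 in replicate 2, 4.89 in replicate 1 and 7.97 in replicate 5, against 3.30 to 4.06 in the rest. Replicate 5 thus had the third highest acute phase score, and it and replicate 2 were high in both marker groups. Over the 7 arrays without replicates 1, 2 and 9 the acute phase score correlated at 0.93 with the Kupffer cell score and at 0.90 with the neutrophil and monocyte score. Without replicate 5 as well, an alternative added after seeing the data, these were 0.43 and -0.33 over 6 arrays; the neutrophil and monocyte score rests on 1 measured gene. The heat shock score was 0.49 in replicate 1 and 0.22 in replicate 2, and the ER stress score 0.24 and 0.20. These were the 2 highest arrays for 8 of 17 heat shock genes and 9 of 23 ER stress genes (12% of all genes). Xenobiotic genes had scores of -0.32 and -0.25 in replicates 1 and 2, which were the 2 lowest arrays for 14 of 34 genes (9.92% of all genes).

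Over the 10 arrays the median SD was 0.26 for fatty acid synthesis and 0.42 for cholesterol synthesis genes, below the 0.75 of clock, 0.55 of acute phase and 0.46 of PPARα target genes. Without replicates 1, 2 and 9 this order did not hold: cholesterol synthesis had the largest, 0.28, against 0.25 for clock, 0.19 for fatty acid synthesis, 0.18 for acute phase and 0.14 for PPARα target genes. Replicate 10 was the highest array for 13 of 23 fatty acid synthesis genes and 12 of 21 cholesterol synthesis genes (8.38% of all genes). The lowest array was replicate 2 for 11 of 23 fatty acid synthesis genes (13.6% of all genes) and replicate 9 for 12 of 21 cholesterol synthesis genes (19% of all genes). Fasn, the fatty acid synthase gene, measured 10.68 in replicate 2, 11.20 in replicate 9, 12.40 in replicate 10 and a median of 11.59 over the 10 arrays. It ran from 8.84 to 10.24 in fish oil livers, below every control, and from 11.75 to 12.80 in fenofibrate livers.

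Aacs, which activates acetoacetate for lipid synthesis, spread most: 6.27 in replicate 2, 6.68 in replicate 1, 8.00 in replicate 9 and 10.06 in replicate 10. Srebf1, the gene of the transcription factor SREBP-1, was low in the 3 arrays that stood apart, at 9.97, 10.11 and 9.64 in replicates 1, 2 and 9 against 10.78 to 11.14 in the others. Thrsp, a lipogenic cofactor, ran from 11.32 in replicate 1 to 13.56 in replicate 10. Elovl6, an elongase, ran from 10.22 in replicate 2 to 11.46 in replicate 10. Scd1 stayed between 14.25 and 14.43, near the top of the scale.

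In cholesterol synthesis, Sqle, the squalene epoxidase gene, ran from 7.16 in replicate 9 to 9.86 in replicate 10, with 9.79 in replicate 1 and 9.46 in replicate 5. Its fish oil range was 2.80 to 7.14, just below the lowest control, and its fenofibrate range 5.91 to 9.88. Mvd, the mevalonate decarboxylase gene, ran from 3.47 in replicate 9 to 6.26 in replicate 10, and Lss, the lanosterol synthase gene, from 6.77 in replicate 9 to 9.00. Fdps, the farnesyl diphosphate synthase gene, ran from 10.87 in replicate 9 to 12.19 in replicate 10. Replicates 2 and 9 were the 2 lowest arrays for 10 of 21 genes (4.21% of all genes), replicates 5 and 10 the 2 highest for 8 of 21 (3.51%) and replicates 1 and 10 for 7 of 21 (1.57%).

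The fits on single genes of these pathways called little in control livers. On Fasn limma called 0 genes in control livers (982 at an unadjusted p under 0.05) and 0 in fish oil livers (446), and in fenofibrate livers 1 gene (0.0111%), Acss2, an acetyl-CoA synthetase, with a slope of 1.27 ± 0.14 (limma adjusted p = 0.005). On Sqle it called 0 in control livers (571 at an unadjusted p under 0.05), and 1 in fish oil livers (0.0111%), Msmo1, a sterol monooxygenase, with a slope of 0.57 ± 0.06 (limma adjusted p = 0.0094). In fenofibrate livers it called 11 (0.122%), of which 9 were cholesterol synthesis genes: Fdps (0.44 ± 0.04), Nsdhl (0.41 ± 0.04), Mvd (0.95 ± 0.11), Idi1 (0.47 ± 0.06), Hsd17b7, Dhcr7, Lss, Msmo1 and Cyp51.

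The 2 lipid synthesis pathways varied together. The fatty acid and cholesterol list scores correlated at r = 0.85 (Spearman rho 0.79) across the 10 arrays, at 0.74 without replicates 2 and 10 and at 0.82 without replicates 1, 2 and 9 (rho 0.75, 7 arrays). Both scores were highest in replicate 10, at 0.22 and 0.54, and low in replicate 2, at -0.29 and -0.39, and replicate 9, at -0.19 and -0.48. The lists share a tissue sample and a normalization for each point, and the correlation is a description.

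**Figure D4:**
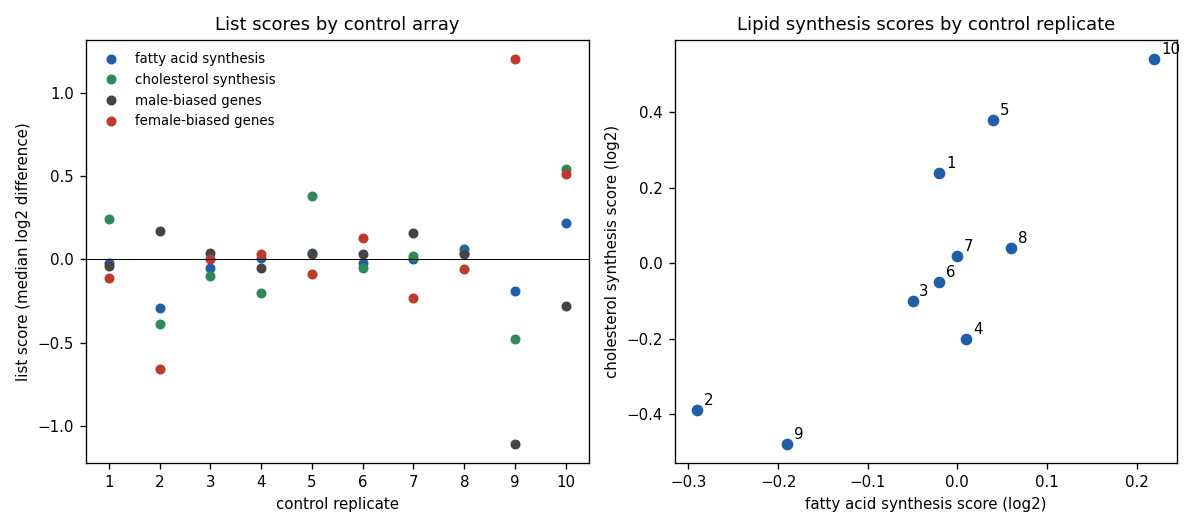
The left panel gives the list score (median log2 difference of the list's genes from their medians) of fatty acid synthesis, cholesterol synthesis, male-biased and female-biased genes for each control replicate. The right panel sets the cholesterol score against the fatty acid score, with replicate numbers; replicate 10 is at 0.22 and 0.54, replicate 9 at -0.19 and -0.48, and in the left panel replicate 9 has scores of -1.11 for male-biased and 1.20 for female-biased genes.

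PPARα targets were high in replicates 1 and 9 and low in replicate 2. Replicates 1 and 9 were the 2 highest arrays for 20 of 26 genes (6.26% of all genes), and replicate 2 the lowest for 12 of 26 (13.6%). Cidec, a lipid droplet protein, measured 8.98 in replicate 1, 7.92 in replicate 9, 5.03 in replicate 2 and 3.04 to 3.97 in the others. Pdk4, the kinase that shuts off pyruvate dehydrogenase, measured 9.27, 6.84 and 4.69 in replicates 1, 9 and 2, and 4.56 to 5.29 in the rest. Cidec and Pdk4 thus separated replicates 1 and 9 from every other control array. For Cidec, the values of 3.04 to 3.97 lie below the log2 4 of the filter.

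Acot3 and Cyp4a14 differed more widely within the remaining arrays. Acot3, a peroxisomal acyl-CoA thioesterase, measured 3.20 in replicate 2, 5.14 in replicate 5, 5.21 in replicate 7 and 8.54 to 11.08 in the others. Cyp4a14, a fatty acid hydroxylase, measured 7.10 in replicate 2, 9.11 in replicate 5, 13.64 in replicate 1 and 13.85 in replicate 9. Its range was 13.23 to 13.96 in fish oil livers and 14.09 to 14.26 in fenofibrate livers, so replicates 1 and 9 lay within the fish oil range. Cidec is also an adipocyte gene, and the adipocyte list score was 0.89 in replicate 1 against -0.40 to 0.10 in the others. That score rests on 5 measured genes, Cidec among them. The summed intensity of the adipocyte markers was 15.02 in replicate 1, the lowest of the 10 arrays, and up to 15.33 in the others. Such a sum is set mostly by its brightest members. Of the 5 measured markers, 2 were among the brightest 10% of genes, with a highest mean of 14.15 against a list median of 8.66. The sum is therefore not a like measure to the score. Fabp4, the adipocyte fatty acid binding protein, measured 9.44 in replicate 1, 9.71 in replicate 2 and 8.05 to 8.91 in the others. The part of adipocyte RNA in these results was not tested.

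Sex-biased genes singled out replicate 9. It was the lowest array for 13 of 20 male-biased genes (19% of all genes) and the highest for 8 of 14 female-biased genes (11.3%), with list scores of -1.11 and 1.20. Hsd3b5 measured 5.34 in replicate 9, 10.84 in replicate 1 and 12.16 to 12.81 in the others. Cyp2b9 measured 9.69 in replicate 9 and at most 2.71 in any other control array, and 7.53 to 11.89 in fenofibrate livers. Hsd3b5 stood at 0.00793 times its median in replicate 9. No fold is given for Cyp2b9, because the other control arrays lay below the log2 4 of the filter, which the gene passed through arrays where it is high.

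Serpina12, the gene of the adipokine vaspin, was 10.21 in replicate 9 and 11.71 to 13.20 in the other arrays. Slco1a1, an organic anion transporter, was 10.29 against 11.31 to 11.89, and Susd4, a complement regulator, 4.47 against 6.82 to 8.25. Vldlr, the very low density lipoprotein receptor, was 7.47 against 3.22 to 5.25. All 4 put replicate 9 outside the range of the other 9 arrays. Eif2s3y and Xist were at male levels there, as given above. Replicate 10 had the next scores, -0.28 for male-biased and 0.51 for female-biased genes, and replicate 2 had -0.66 for female-biased genes.

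Single genes of growth hormone signalling, the hormone whose pulses set sex-biased expression in liver, also differed between arrays. The 15 measured genes of this list did not move as a unit. Their list score was 0.0, -0.04 and -0.01 in replicates 1, 9 and 10, and their median gene-to-gene correlation was 0.03 over the 10 arrays. Cish measured 7.93 in replicates 1 and 9, 7.68 in replicate 10 and 3.16 to 5.59 in the others. Socs2, another feedback inhibitor of the receptor, measured 10.57, 10.57 and 9.65 in these arrays and 6.44 to 8.61 in the others. Both genes were high in the same 3 arrays, with no overlap.

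Bcl6, a repressor of female-biased genes, measured 7.44 in replicate 9, 7.56 in replicate 10, 8.17 in replicate 5 and 9.51 to 10.79 in the others. Onecut1, the hepatocyte nuclear factor 6, measured 8.62 in replicate 9, 8.69 in replicate 10 and 4.32 to 7.92 in the others. Myc measured 7.98 in replicate 1, 6.39 in replicate 9, 6.24 in replicate 10 and 2.95 to 4.81 in the others. Cish, Socs2 and Myc were thus high in replicates 1, 9 and 10, while Bcl6 was low in replicates 9 and 10 but not in replicate 1.

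The interferon and antigen presentation score was highest in replicate 5, whereas more of its single genes were highest in replicate 9. The score was 0.57 in replicate 5 and 0.21 in replicate 7, against -0.20 to 0.15 in the rest. Of the 32 genes, 11 were highest in replicate 9 (11.3% of all genes), 9 in replicate 5 (12.6%) and 7 in replicate 7 (5.17%). Replicate 5 was also the highest array for 11 of 16 Kupffer cell markers. The part of macrophage content in the interferon score was not tested. Ifit1 and Usp18, both interferon-induced, were highest in replicate 9, at 7.95 against 4.14 to 6.02 and 10.19 against 7.57 to 8.40. Ribosomal protein genes were lowest in replicate 9 for 19 of 23 (19% of all genes), with a score of -0.18 against -0.04 to 0.04 in the other arrays.

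Functions that vary together were compared by list scores over the arrays without replicates 1 and 2, since these 2 stand apart in the clock and acute phase lists and no correlation over all 10 arrays is given for them. Scores of 5 lists (clock, acute phase, both lipid synthesis lists and PPARα targets) gave 10 pairs. Over the 8 arrays the clock score correlated with the acute phase score at -0.42, with the fatty acid synthesis score at 0.80, with the cholesterol score at 0.57 and with the PPARα target score at -0.73. Without replicate 9 as well these became -0.37, 0.55, 0.09 and 0.57, so the sign against PPARα targets rested on replicate 9. The acute phase and fatty acid scores correlated at -0.18 over 8 arrays and 0.02 over 7. The acute phase score had 0.10 with cholesterol and 0.25 with PPARα targets over 8 arrays, and 0.37 and -0.08 over 7. PPARα targets correlated with fatty acid synthesis at -0.81 without replicates 2 and 10 but at 0.15 without replicates 1, 2 and 9, and with cholesterol synthesis at 0.43 without replicates 9 and 10 and at -0.05 over the 7 arrays. In this set of pairs the 2 lipid synthesis lists kept the highest correlation over the 7 arrays, 0.82. Some lists outside the set were closer to cholesterol synthesis over these 7 arrays. Glutathione and antioxidant genes had 0.92, urea cycle and amino acid catabolism genes 0.91 and ER stress genes -0.93. Over all 10 arrays these were -0.07, -0.06 and 0.0, against 0.85 for the 2 lipid synthesis lists.

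Within a list, the median gene-to-gene correlation showed which sets varied as a unit. Cholesterol synthesis genes had 0.69 over the 10 control arrays, 0.66 without replicates 1, 2 and 9, 0.60 in fish oil and 0.73 in fenofibrate livers. Kupffer cell markers had 0.75, 0.79, 0.81 and 0.61 in the same order, and interferon genes 0.46, 0.66, 0.45 and 0.36. Clock genes had 0.88 but 0.36 without the 3 arrays, acute phase genes 0.74 but 0.17, and PPARα targets 0.71 but 0.39. In the other diets clock genes had 0.70 and 0.50, and acute phase genes 0.50 and 0.38. Fatty acid synthesis genes had 0.31 and 0.42 without the 3 arrays.

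The file labels number the arrays, and the control arrays fall into 5 pairs of consecutive numbers (replicates 1 and 2, 3 and 4, 5 and 6, 7 and 8, 9 and 10). Mice were housed 2 per cage, but cage mates are not named, so the pairs are label pairs only. Deviations from the gene means correlated at 0.314 within the pair of replicates 1 and 2 and at 0.361 within 3 and 4, but at 0.082, 0.188 and 0.026 within the others; pairs of other control arrays ran from -0.512 to 0.249. An F test across the 5 pairs (limma, 5 residual degrees of freedom) called 15 of 9005 genes (0.167%), with 1580 at an unadjusted p under 0.05.

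The 10 genes with the smallest p were Fam124a, Saa1, Mt1, Saa2, Psph, Slc25a45, Slc16a7, Slc11a2, Insc and Hsd17b6. Fam124a measured 8.30 and 8.20 in replicates 1 and 2 and 6.20 to 6.96 in the others (limma adjusted p = 0.03258). Psph, the last enzyme of serine synthesis, measured 8.77 and 8.81 against 6.80 to 7.43. Hsd17b6, a retinol and steroid dehydrogenase, was low in the same pair, at 8.28 and 7.94 against 10.21 to 11.77. In these genes and in Saa1, Saa2 and Mt1 the pair of replicates 1 and 2 lay apart from all other control arrays. Without replicate 3, 4, 7 or 8 the test called 0 genes (1146 to 1345 at an unadjusted p under 0.05), without replicate 1, 2, 5 or 6 it called 2, 3, 7 and 6, without replicate 9 or 10 it called 55 and 81, and without replicates 1, 2 and 9 it called 0 (735).

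Finally, the spread of each gene was compared between diets, by limma on absolute deviations from the group mean. Against fish oil livers, control livers had a larger spread for 1 of 9005 genes (0.0111%; 775 at an unadjusted p under 0.05). This was Ly6d, a surface protein, with a difference of 1.06 ± 0.19 (SE; limma adjusted p = 0.027). It measured 6.61, 5.31 and 5.22 in control replicates 2, 1 and 9 and at most 2.98 in the other controls. Fish oil livers lay between 2.57 and 3.23, also below the log2 4 of the filter, so the fish oil side of the Ly6d comparison is at background. The call rests on the 3 control arrays that stand apart, and without them the difference was -0.14. Without any 1 of them the test called 0 genes, with 625 to 714 at an unadjusted p under 0.05, and without any other control array it called 9 to 13.

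Against fenofibrate livers 4 genes were called (0.0444%; 919 at an unadjusted p under 0.05). Acot3 (1.73 ± 0.33), Cyp4a14 (1.52 ± 0.30) and Cyp4a12a, a male-biased fatty acid hydroxylase (0.58 ± 0.11), varied more in control livers, with limma adjusted p of 0.033, 0.035 and 0.033. Without replicates 1, 2 and 9 Cyp4a14 stayed called (0.87, limma adjusted p = 0.00767), whereas Acot3 (1.27) and Cyp4a12a (0.49) had limma adjusted p of 0.0603 each. Single arrays also ended these calls. Acot3 was not called without replicate 2 (1.13, limma adjusted p = 0.336), 5 or 7 (limma adjusted p = 0.104 each), nor Cyp4a14 without replicate 2 (1.06, limma adjusted p = 0.0984) or 5 (1.37, limma adjusted p = 0.0679), nor Cyp4a12a without replicate 4 (limma adjusted p = 0.0503), 9 (0.45, limma adjusted p = 0.165) or 10 (limma adjusted p = 0.07). In fenofibrate livers Cyp4a14 lay at 14.09 to 14.26, near the highest values of the files; the part of the scale in the result was not tested. The fourth was Fabp3, the heart-type fatty acid binding protein, which lay between 2.62 and 3.13 in control livers and between 3.45 and 9.52 in fenofibrate livers. Fabp3 passed the filter only through fenofibrate arrays, and its control values lie below log2 4, so this call says nothing about its variation in control livers.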

How the data were processed

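RNA from 33 mouse livers was measured on expression arrays, 10 of them from control livers. The deposited values are log2 probe set intensities. The submitters' processing notes name GCRMA 2.24.1, which by default corrects background by probe sequence, normalizes arrays by quantiles and summarises probes. Quantile normalization gives all arrays nearly the same distribution, so a change in most genes at once cannot be seen. The number of arrays limits the precision. Of 45101 probe sets, 34945 had 1 gene in the platform annotation, 932 several and 9160 none; 34754 symbols were updated by gene ID. Probe sets at log2 4 or more in at least 10 arrays were kept, and each gene was represented by its brightest remaining probe set (9005 genes).

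Tests used limma 3.58.1 and statmod 1.5.0 in R 4.3.3, with Benjamini-Hochberg adjustment over all genes and a call at an adjusted p under 0.05: slopes on Dbp, Lcn2, Fasn and Sqle within each diet, an F test across pairs of consecutive array numbers, and a test of spread on absolute deviations from the group mean. The scripts were tested on simulated data with independent normal noise and large planted effects. Noise shared by many genes in an outlying array was not simulated, so this says nothing about calls that rest on such arrays. Arntl was to be the clock gene of the slopes but was too dim; Dbp was chosen after seeing the data, as was leaving out each fish oil and fenofibrate array. The p-values of the slopes come from the scatter of arrays around a line on 1 gene. Those of the F test come from differences within pairs, and those of the spread test from the variation of absolute deviations. The slope and spread fits treat the arrays as independent, though mice were housed 2 per cage. With pairs of consecutive label numbers as a random block, the control fits called 599 genes on Dbp and 384 on Lcn2. Without the block they called 748 and 446.

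Named genes were the 30 brightest, the 40 with the largest SD and the 20 with the largest SD among genes never below log2 6, all genes of the clock, acute phase, lipid synthesis and sex-biased lists, up to 4 most variable and 4 brightest genes of other lists, and the genes with the smallest p. Members and lists were chosen with earlier results of these data known. Promoter sequences are from RefSeq (GRCm38.p6). Alternatives were other filters, probe set rules, scalings, priors, ranks, the replicate number as a block, pairs of label numbers as a random block, and leaving out arrays.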

Additional observations from a re-analysis of the deposited data

Results flagged for a closer look

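Within the 10 control arrays, 127 results were screened for a highest or lowest array whose gap to the next exceeds the critical share of the group's range in Dixon's test, and 27 met it. Chance flags about 1 in 20 groups, but many of the screened genes were chosen for a large SD over these same arrays, so that rate does not apply to them and the count is a description. Of the 23 genes, 11 had replicate 1 as the distant array, 9 had replicate 9 and 3 had replicate 2.

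Replicate 1 was distant and low for the clock genes Dbp (9.48 against 11.61 to 12.45 in the other arrays), Tef (8.30), Per2 (5.19), Per3 (4.72), Bhlhe40 (8.65) and Usp2 (5.48), and for Hsd3b2 (5.90 against 7.52 to 8.61). The clock list score was -1.93 there, against -0.61 to 0.36. Replicate 1 was distant and high for Hsd17b7 (10.17 against 8.77 to 9.45), a cholesterol synthesis gene, Pdk4 (9.27 against 4.56 to 6.84), Cdkn1a (7.51 against 3.28 to 5.09) and Tnfrsf12a (7.80 against 4.57 to 5.46).

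Replicate 2 was distant and high for Saa3 (11.17 against 6.71 to 9.05) and Cd14 (8.23 against 3.03 to 5.18), and low for Abcd2 (2.96 against 6.73 to 8.35), a peroxisomal transporter.

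Replicate 9 was distant and low for Hsd3b5 (5.34), Susd4 (4.47), Serpina12 (10.21), Slco1a1 (10.29) and Lss (6.77 against 7.96 to 9.00), and high for Cyp2b9 (9.69), Vldlr (7.47), Ifit1 (7.95) and Usp18 (10.19). The male-biased score was -1.11 there, against -0.28 to 0.17, and the ribosomal protein score -0.18, against -0.04 to 0.04. The interferon score had replicate 5 as its distant array, at 0.57 against -0.20 to 0.21. Genes of a list share the array, so these results are not independent of each other.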

How the results depend on the processing

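Leaving out control replicates 1, 2 and 9 together changed the following results. Without them the pairs test called 0 genes in place of 15, the spread test 0 in place of 1 (fish oil) and 2 in place of 4 (fenofibrate), the Dbp fit 0 in place of 748 and the Lcn2 fit 0 in place of 446, the clock and fatty acid scores correlated at 0.55 in place of 0.80, and 3 values changed sign: the slopes of Bhlhe40 (-0.17) and Cdkn1a (0.07) on Dbp, and the spread difference of Ly6d (-0.14); the fewer arrays, and a narrow range of Dbp and Lcn2 in the rest, are part of this construction. Leaving out 1 array gave 0 to 81 genes for the pairs test (a lone array of a pair is then assumed to vary like the others), 0 to 13 and 2 to 19 for the spread tests, 63 to 950 for Dbp in control, 0 to 59 in fish oil and 0 to 48 in fenofibrate livers, 100 to 611 for Lcn2 in control, 0 to 639 in fish oil and 0 to 5 in fenofibrate livers, 0 to 3 for Sqle and 0 for Fasn in control livers. The score correlations then ran from 0.72 to 0.88 (fatty acid and cholesterol), -0.47 to -0.31 (clock and acute phase), 0.56 to 0.94 (clock and fatty acid) and -0.51 to -0.07 (acute phase and fatty acid). Without the filter the pairs test called 23 genes, the fish oil spread test 2 and Sqle in fish oil livers 3. A trended, robust prior gave 107 for the pairs test, 10 and 10 for the spread tests, 58 for Dbp in fish oil, 3 for Fasn in fenofibrate and 2 for Sqle in fish oil livers. Deviations from the median gave 0 and 1 for the spread tests, and squared deviations 0 and 0. On ranks, Dbp called 0 genes in control, 75 in fish oil and 0 in fenofibrate livers, Lcn2 0 in control and 0 in fish oil livers, and Sqle 0 in fish oil livers. A filter at log2 6 gave 53, the mean of probe sets 104 and centred arrays 42 for Dbp in fish oil livers, and the mean of probe sets gave 8 for Dbp in fenofibrate livers. Centred arrays gave 5 for Fasn in fenofibrate livers and -0.76 for the clock and acute phase scores. The cause of these shifts was not tested.

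The labels do not state that replicate numbers pair arrays across diets. Same-numbered arrays correlated between -0.206 and 0.354. Differently numbered arrays of different diets were not correlated, so such a pairing was not tested. With the replicate number as a block the fish oil spread test called 2 genes, and the calls of Ly6d (1.03, limma adjusted p = 0.095) and Cyp4a14 (1.52, limma adjusted p = 0.085) were lost. Of 1857 recomputed SDs of named genes, 1681 stayed within a fixed fold limit of the main SD and 176 did not. Most of these recomputations left out a single array. Without replicates 1, 2 and 9 together, 67 SDs moved beyond that limit and 50 did not. Of 721 recomputed slopes and spread differences, 600 kept their call, 118 lost it and 3 changed sign. Without those 3 arrays, 2 kept their call, 21 lost it and 3 changed sign. The Arntl fits, and Lcn2 at the log2 6 filter, were not run because the gene did not pass the filter. Signal near background limits the dim genes, and signal near the top of the scale the brightest.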

Other observations

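Several genes that failed the filter on low values, and were chosen after their values were seen, were high in a few control arrays. Moxd1, a monooxygenase related to dopamine beta-hydroxylase, measured 7.52 in replicate 1 and 11.71 in replicate 2, between 1.83 and 3.11 in the other control arrays, and up to 10.6 in fish oil livers. Ugt2b37, a glucuronosyltransferase, measured 5.94 and 8.57 in replicates 1 and 2, and Asns, the asparagine synthetase gene, 5.20 and 5.86. Prtn3, a neutrophil protease, was 7.97 in replicate 2, and S100a9, the partner of S100a8, was 6.33 in replicate 2 and 6.60 in replicate 5.

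In replicate 9, Slc22a27 measured 6.40, Slc22a29 6.00 and 1810053B23Rik 6.72. Both transporters lay at 3.39 or below in the other control arrays. These values belong to no test of the report.

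Variable genes outside the lists described above, named by their SD, also divided the arrays. Rgs16, a regulator of G protein signalling, measured 7.24 in replicate 1, 8.89 in replicate 2, 10.08 in replicate 9 and 11.31 to 12.08 in the others. Ppp1r3c, a glycogen-targeting subunit of protein phosphatase 1, measured 6.42 and 6.41 in replicates 1 and 9 and 8.59 to 10.40 in the others. Nr0b2, the repressor SHP of bile acid synthesis, measured 6.08 in replicate 9, 7.96 in replicate 1 and 8.32 to 10.30 in the others. Angptl8, an insulin-responsive inhibitor of lipoprotein lipase, measured 6.21 in replicate 1, 6.70 in replicate 2, 7.23 in replicate 9 and 8.33 to 10.34 in the others. In each of these genes the distant arrays did not overlap the rest.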
